A study of Mus musculus with 46 samples.

Results

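The T-cell receptor complex and its proximal signaling genes were followed across tumors and cultured cells: the CD3 chains Cd3e, Cd3d and Cd3g, the zeta chain Cd247, the receptor alpha constant gene Trac, the kinases Zap70 and Lck, and the adaptors Lat and Lcp2. These 9 genes were chosen by name, from their known place in the complex or in its first signaling steps. Earlier results of these data were known when they were chosen. All 9 were found among the 48795 genes of the expression table. Total RNA was sequenced from 43 subcutaneous MC-38 tumors and from 3 cultures of MC-38, a mouse colon carcinoma line. The question was how interference with PD-1, an inhibitory receptor of activated T cells, changed these genes in the tumor.

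The samples formed 8 groups. In the antibody arm, WT mice (C57/BL6NTac, age-matched young adult females) carried MC-38 tumors and received either the anti-mouse PD-1 antibody muDX400 at 5 mg/kg or an isotype control antibody, from day 7 after implant and every 4 days. Tumors were taken after 1 dose (4 days after it, day 11; 5 PD-1 Ab-treated and 5 isotype control) or after 2 doses (8 days after the first, day 15; 5 and 5). In the genetic arm, both groups received tamoxifen at 40 mg/kg on 5 consecutive days. The 10 PD-1cKO mice carried Pdcd1 alleles with loxP sites around exons 2 and 3 (Pdcd1 fl/fl) and Rosa26-creERT2, a Cre active in all cell types rather than in T cells alone, and the 10 controls were littermates labelled WT. Both groups carried the time point label 28 day, while the methods also mention an earlier collection of PD-1cKO tumors. The remaining groups were 3 baseline tumors, whose labels name no treatment or day, and the 3 cultures. The PD-1 gene itself was not lower in PD-1cKO tumors: Pdcd1 ranged from 5.05 to 19.95 FPKM with a median of 8.29, against 1.71 to 7.02 with a median of 3.01 in WT. FPKM are fragment counts of the whole gene, divided by transcript length and by sequencing yield, so that transcripts with and without the deleted exons cannot be told apart. By flow cytometry, at an earlier day than this label, the study found PD-1 protein on very few CD4 or CD8 T cells of PD-1cKO tumors.

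As background, the T-cell receptor recognizes peptide on major histocompatibility molecules through its alpha and beta chains, which have almost no intracellular part of their own. Signaling passes through the associated CD3 gamma, delta and epsilon chains and the zeta chain, whose tails carry tyrosine motifs. Lck, which can bind CD4 or CD8, phosphorylates these motifs. ZAP-70 docks on them and phosphorylates the scaffold LAT and the adaptor SLP-76 (encoded by Lcp2), from which calcium and Ras signaling start. PD-1 recruits phosphatases that act against these early steps. The alpha chain and the CD3 chains mark T cells, whereas the zeta chain, ZAP-70, Lck and LAT are also made by natural killer (NK) cells. SLP-76 is also made by NK cells, myeloid cells, mast cells and platelets. The other sources named here are not a complete list for any of these proteins.

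The CD3 genes are neighbors, and their promoters are shown because the 3 genes were at 0 in culture and moved together in the tumors described below. On mouse chromosome 9 (GRCm38), Cd3g (chr9:44969572-44980431, minus strand) and Cd3d (chr9:44981786-44987339, plus strand) start 1355 bases apart and run away from each other. Cd3e (chr9:44998740-45009627, minus strand) starts 27825 bases from Cd3d. The spans are those of GENCODE gene models, and the distances are between RefSeq starts, which for Cd3e is at 45009611. Each window below runs from 250 bases before to 50 bases after the annotated start in RefSeq (GRCm38.p6), 5′ to 3′ on the strand of the gene, at chr9:45009562-45009861 for Cd3e, chr9:44981536-44981835 for Cd3d and chr9:44980382-44980681 for Cd3g. Capitals mark AGGAAG, an ETS-type motif, on either strand.
Cd3e: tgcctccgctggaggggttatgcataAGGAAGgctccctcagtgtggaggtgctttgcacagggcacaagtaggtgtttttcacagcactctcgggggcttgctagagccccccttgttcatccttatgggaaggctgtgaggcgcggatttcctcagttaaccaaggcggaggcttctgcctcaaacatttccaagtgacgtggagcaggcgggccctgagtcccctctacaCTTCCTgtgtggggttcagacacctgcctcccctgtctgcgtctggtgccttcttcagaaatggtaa
Cd3d: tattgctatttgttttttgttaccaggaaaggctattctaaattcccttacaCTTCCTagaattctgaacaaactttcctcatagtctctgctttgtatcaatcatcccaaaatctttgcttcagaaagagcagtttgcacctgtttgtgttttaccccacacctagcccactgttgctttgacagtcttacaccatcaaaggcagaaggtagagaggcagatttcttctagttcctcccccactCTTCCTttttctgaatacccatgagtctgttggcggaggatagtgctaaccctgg
Cd3g: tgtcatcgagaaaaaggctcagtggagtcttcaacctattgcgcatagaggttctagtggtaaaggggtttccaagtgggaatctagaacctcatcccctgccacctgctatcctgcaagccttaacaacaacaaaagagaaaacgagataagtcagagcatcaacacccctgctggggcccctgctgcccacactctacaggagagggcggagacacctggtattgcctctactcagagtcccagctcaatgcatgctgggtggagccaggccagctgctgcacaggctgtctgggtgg
AGGAAG was found 2 times in the Cd3e window, 2 times in the Cd3d window and 0 times in the Cd3g window. TGTGGT, the core letters of a RUNX motif, and TATAAA, the core of a general promoter element, were searched on both strands too and were in none of these windows, so no matches of different motifs overlapped here. Over the 11 windows of the 8 members that matched by symbol, 9 held AGGAAG, 3 held TGTGGT and 0 held TATAAA, against 35.35%, 16.76% and 13.62% of all 32851 promoter windows of the same length. These matches describe letters and are not evidence of binding.

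The other members lie apart from each other. In GENCODE gene models on GRCm38 these were Cd247 at chr1:165788681-165877277 (plus strand), Zap70 at chr1:36761798-36782818 (plus), Trac at chr14:54220521-54224206 (plus), Lck at chr4:129548344-129573641 (minus), Lat at chr7:126363824-126369570 (minus) and Lcp2 at chr11:34046920-34092295 (plus). Values were whole-gene sums over exons. For Cd247, 3007 of its 5329 exon bases (56.43%) overlap exons of Pou2f1, a widely expressed transcription factor gene on the opposite strand. The libraries were made with a stranded kit, but whether counting used the strand is not given in the sources used here, so reads of Cd247 and Pou2f1 cannot be told apart. No other member shared more than 6.324% of its exon bases with another gene.

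The deposited values carry no read counts. The study gives a range of mapped reads over all samples but no value per library, so the depth of each library is unknown. The number of tumors limits the precision. Summed FPKM ranged from 440865 to 1224462 per library. Short non-coding RNA took 30.22% to 66.51% of the summed FPKM in the PD-1cKO and WT libraries and at most 0.0817% elsewhere, so each arm was tested against its own controls and an order of levels across arms is a description. The share also differed within the genetic arm, with medians of 53.97% in PD-1cKO and 45.28% in WT libraries. Mitochondrial genes took 54.63% in 1 isotype control library after 1 dose (replicate 1). Baseline tumors, cultures and the 2-dose groups each had their own run of sample identifiers, and the genetic arm was spread unevenly over 3 runs. The labels do not say what such a run stands for, but for comparisons across runs, run and group cannot be told apart. The labels name no mouse for a sample. The study's description shows the treated tumors as individual animals, and nothing in the labels says whether the 3 cultures were grown separately, so for the cultures p-values measure a spread that may be technical.

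In cultured MC-38 cells the members were at or near 0, with the exception of Cd247. Cd3e, Cd3d and Cd3g were listed at 0 in all 3 cultures. Trac was listed at 0, 0.0503 and 0 FPKM, Zap70 at 0, 0.0351 and 0, and Lcp2 at 0.0164, 0 and 0. Lck (0.216, 0.286 and 0.137 FPKM) and Lat (0.375, 0.146 and 0.121 FPKM) were low but above 0 in every culture. Cd247 stood at 7.32, 6.99 and 6.80 FPKM, above all 20 WT and isotype control tumors. Its opposite-strand neighbor Pou2f1 also had its highest mean in culture, at 4.83 ± 0.15 FPKM (mean ± SD, n = 3), against 1.82 ± 0.56 in the 5 isotype control tumors after 2 doses and 3.56 ± 0.67 in the 10 WT tumors. The leukocyte marker Ptprc (CD45) was at 0 to 0.0078 FPKM in culture. Markers of epithelium, the tissue from which the line derives, were low in it: Krt8, Krt18 and Epcam together summed to 0.564 to 0.708 FPKM.

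Against the cultures, isotype control tumors after 2 doses had 8 of 9 members higher, where 14.2% of the 15199 genes tested were called higher. Genes were called when the adjusted p of limma was under 0.01 and the change on log2(FPKM + 0.1) reached 2-fold; this is a scale that understates changes of low genes. Lcp2 rose by 6.36 ± 0.23 on the log2 scale (SE; adjusted p = 3.48e-08) and Trac by 5.00 ± 0.30 (adjusted p = 9.58e-07). Lcp2, Trac and Zap70 were each listed at 0 in 2 of 3 cultures, so the size of these changes depends on the value added before taking logs: with 1 FPKM added they were 3.25, 2.18 and 1.05. Lck rose by 3.13 ± 0.30 (adjusted p = 2.81e-05), Zap70 by 3.31 ± 0.54 (adjusted p = 0.000875) and Lat by 2.01 ± 0.45 (adjusted p = 0.00478). The Lat call was lost without culture replicate 2 or 3 and without isotype control replicate 4 or 5 (adjusted p = 0.0241, 0.0268, 0.0104 and 0.0134), and without a filter on low values (0.0122). For the 3 CD3 chains, all cultures were at 0 and all 5 tumors above 0, so no fold is given. Cd247 was the member that fell, by 1.20 ± 0.19 on the log2 scale (adjusted p = 0.000706), where 7.09% of genes were called lower. The overlap with Pou2f1 applies to that value. Markers of other cells were called higher in the tumors as well: 4 of 4 macrophage markers (sums 2.52 to 3.12 FPKM in cultures and 361 to 547 in tumors), 3 of 3 mast cell markers tested (0 in every culture and 2.16 to 5.84), 3 of 3 neutrophil markers tested (0.372 to 0.673 and 1.73 to 13.5), 2 of 2 B cell markers tested (0.0183 to 0.0744 and 1.69 to 5.48) and 2 of 3 NK cell markers tested (1.20 to 1.47 and 3.59 to 5.73). Their part in the members' values was not tested.

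Across the 8 groups, 8 of 9 members had their highest median in PD-1 Ab-treated tumors after 2 doses. Zap70 had its highest median in PD-1cKO tumors, at 6.77 FPKM against 5.99 after 2 antibody doses, and these ranges overlapped. For Cd3e the order of medians rose from culture (0 FPKM) through isotype control after 1 dose (0.593), WT (1.32), baseline (1.88), isotype control after 2 doses (2.46), PD-1 Ab after 1 dose (4.99) and PD-1cKO (6.24) to PD-1 Ab after 2 doses (15.1). Each neighboring pair in that order overlapped in range, except culture with the group next to it. Over all 9 members, 55 of 63 neighboring pairs overlapped. These levels are per kilobase of transcript, so members may be set beside each other: in PD-1 Ab-treated tumors after 2 doses, mean levels ran from 5.51 ± 2.43 FPKM for Zap70 to 25.1 ± 10.1 for Cd3g and 24.0 ± 6.77 for Lcp2 (SD, n = 5).

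**Figure D1:**
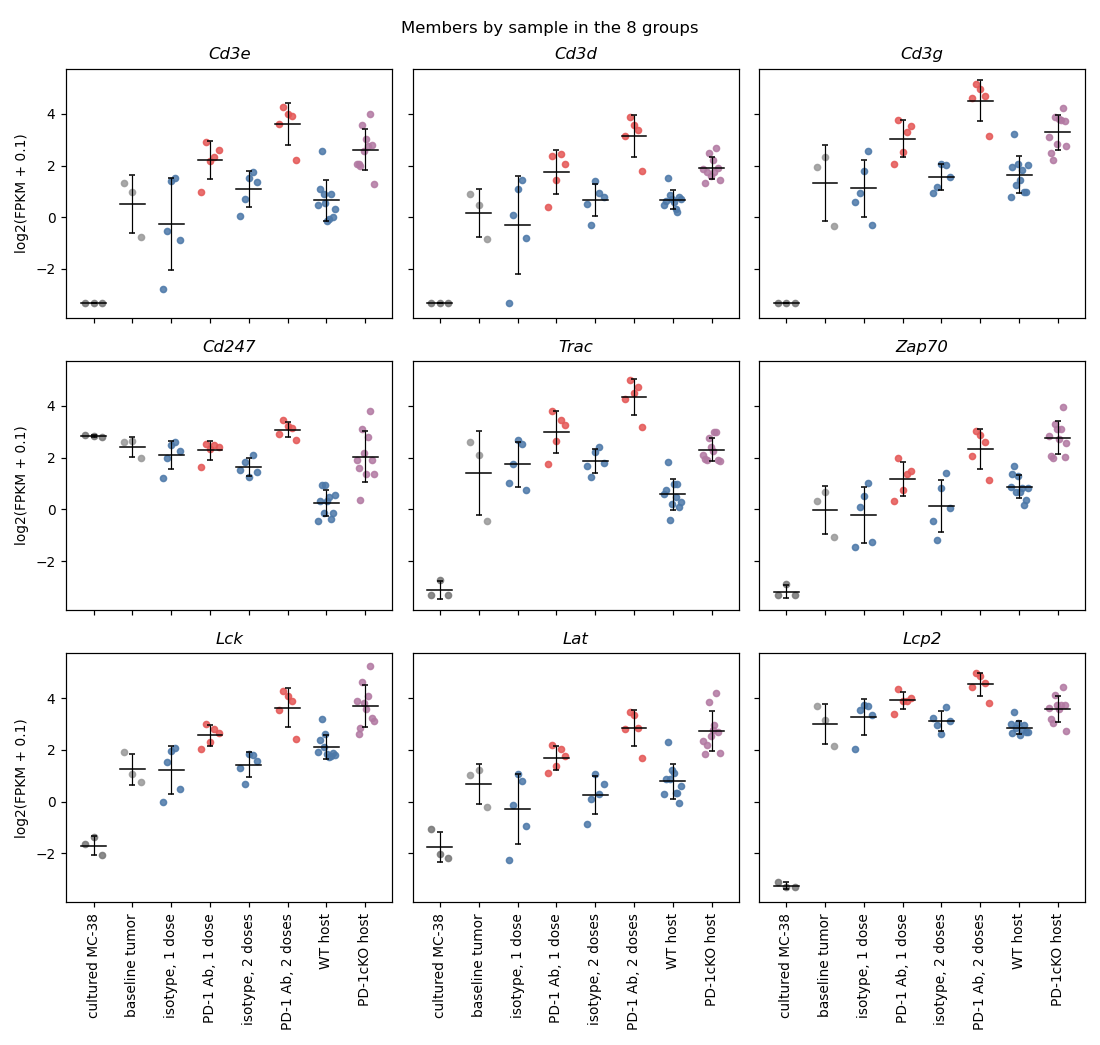
Level of each of the 9 members, as log2(FPKM + 0.1) (vertical axes), in every sample of the 8 groups (points), with a bar at each group mean and its SD. The cultures have the lowest group mean in every panel but that of Cd247 (for Lat, 1 isotype control tumor after 1 dose lies below them), and PD-1 Ab-treated tumors after 2 doses and PD-1cKO tumors lie mostly above their controls.

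After 2 antibody doses every member was higher in PD-1 Ab-treated than in isotype control tumors. All 9 of 9 were called higher, where 5.03% of the 15062 genes tested were called higher and 0.272% lower, and the median log2 fold change was 2.46 for the members against -0.04 for all genes tested. In 8 of 9 members the groups did not overlap, against 9.23% of all genes. In these bulk tumors, more T cells and more RNA per T cell cannot be told apart.

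The chains that build the receptor, the CD3 chains and Trac, rose by 2.46 to 2.95 on the log2 scale. Cd3e stood at 12.1, 19.0, 15.9, 15.1 and 4.48 FPKM in the 5 PD-1 Ab-treated tumors and at 0.932, 1.55, 2.77, 3.27 and 2.46 in the 5 isotype controls. The lowest treated tumor, replicate 5, was above the highest control. Cd3e rose by 2.52 ± 0.41 on the log2 scale (SE; adjusted p = 0.00219 in limma). Cd3g stood at 24.6, 35.3, 30.8, 26.0 and 8.65 FPKM against 1.80, 2.18, 4.12, 4.00 and 2.88, again without overlap, and had the largest change of the 9, 2.95 ± 0.36 (adjusted p = 0.000885). Cd3d ranged from 3.34 to 14.5 FPKM against 0.712 to 2.54 and rose by 2.47 ± 0.39 on the log2 scale (adjusted p = 0.00194). Trac, the constant part of the alpha chain, stood at 19.2, 31.7, 22.4, 26.7 and 8.92 FPKM against 3.13, 2.29, 4.59, 5.23 and 3.34. Its log2 fold change was 2.46 ± 0.32 (adjusted p = 0.00101).

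Cd247, which encodes the zeta chain with the largest number of tyrosine motifs, rose less. It stood at 7.38, 10.9, 9.28, 8.85 and 6.29 FPKM in PD-1 Ab-treated tumors and at 2.75, 3.48, 2.30, 4.21 and 2.66 in isotype controls, with no overlap and a log2 fold change of 1.45 ± 0.19 (adjusted p = 0.00106). Pou2f1 averaged 2.16 ± 0.52 FPKM in the treated tumors against 1.82 ± 0.56 (SD, n = 5 each). Cultured MC-38 cells held Cd247 at 6.80 to 7.32 FPKM, a level within the range of the treated tumors. The part of Pou2f1 and of tumor cells in the Cd247 value, and so in its smaller change, was not tested.

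Of the kinases, Lck, which phosphorylates the receptor tails, ranged from 5.20 to 19.3 FPKM against 1.48 to 3.48 and rose by 2.20 ± 0.34 (adjusted p = 0.00171). Zap70 stood at 4.08, 8.13, 7.24, 5.99 and 2.11 FPKM against 0.633, 0.343, 1.69, 2.54 and 0.928. It was the member whose groups overlapped: replicate 5 of the treated tumors lay below isotype control replicate 4. Its log2 fold change was 2.21 ± 0.49 (adjusted p = 0.00921), close to the threshold, and the call was lost in 8 of the 10 fits that left out 1 tumor, all but those without isotype control replicate 4 or PD-1 Ab replicate 5 (adjusted p up to 0.0301), without a filter (0.0260), with median-of-ratios scaling (0.0110) and without a variance trend (0.0153).

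The adaptors differed from each other in level. Lat, the membrane scaffold, ranged from 3.14 to 11.0 FPKM against 0.444 to 1.97 and rose by 2.58 ± 0.39 (adjusted p = 0.00165). Lcp2 was the most abundant member in the controls and rose least: it stood at 21.6, 31.5, 28.7, 24.0 and 14.0 FPKM against 9.28, 7.63, 6.08, 12.4 and 8.54, a log2 fold change of 1.42 ± 0.23 (adjusted p = 0.00213), without overlap.

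The same treated tumors stood at the ends for every member. Replicate 2 was the highest and replicate 5 the lowest of the 5 PD-1 Ab-treated tumors after 2 doses in 9 of 9 members. With replicates 2 and 4 left out together, an alternative chosen after seeing the data, 0 of 9 members were called, along with 1 gene of 15011 in all. The members' log2 fold changes were then 1.26 to 2.68, with limma adjusted p from 0.0140 to 0.0727.

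**Figure D2:**
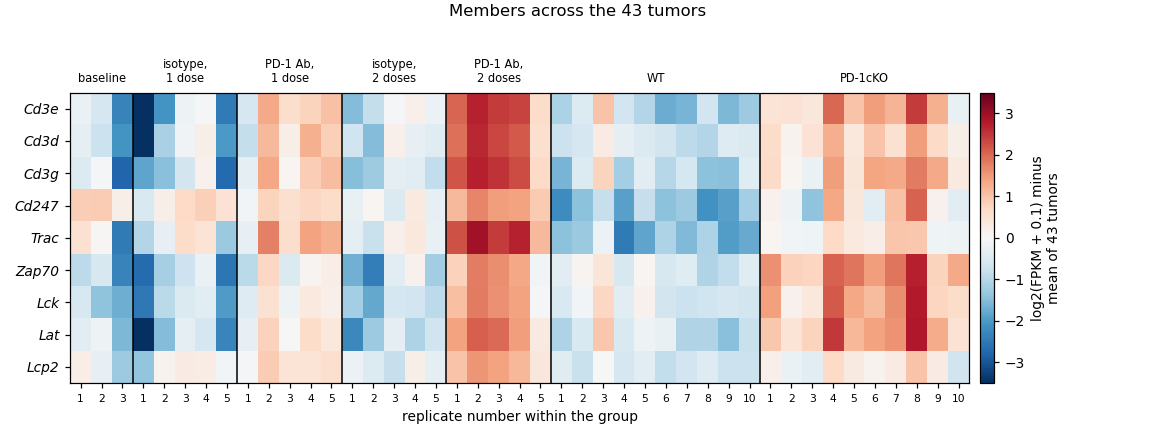
Heat map of the 9 members (rows) in the 43 tumors (columns, by group and replicate number), where color gives log2(FPKM + 0.1) minus the mean over the 43 tumors. Tumors that lie high or low in their group for 1 member mostly do so for the others, as PD-1 Ab-treated replicate 5 after 2 doses (low) and WT replicate 3 (high) show.

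Markers of other cells moved in this comparison as well. The 5 T cell markers that are no members (Cd2, Cd5, Cd6, Trbc1 and Trbc2) were all called higher; their sum was 6.01 to 11.1 FPKM in isotype control and 21.5 to 92.6 in PD-1 Ab-treated tumors. Of 4 macrophage markers, 4 were called higher, with sums of 361 to 547 FPKM against 672 to 1383. Of mast cell markers, 3 of the 3 tested were called higher (sums 2.16 to 5.84 against 7.91 to 40.0 FPKM). Of 5 NK cell markers, 2 were called higher (3.59 to 5.73 against 11.4 to 31.8 FPKM). The 2 were Klrd1 (log2 fold change 2.77, means 2.37 against 17.1 FPKM) and Klre1 (2.18). The others were not called, among them Klrb1c (1.35, adjusted p = 0.0175 in limma) and Eomes (0.14, adjusted p = 0.706). Of 2 platelet markers tested, 1 was called higher, Pf4 (sums 15.2 to 22.7 against 27.6 to 61.4 FPKM). By limma 0 of 4 B cell markers (1.69 to 5.48 against 1.14 to 18.2 FPKM) and 0 of 3 epithelial markers (0.860 to 17.0 against 0.838 to 31.3 FPKM) were called. Of 3 neutrophil markers tested, S100a8 was called lower (log2 fold change -2.004, adjusted p = 0.00836), with sums of 1.73 to 13.5 against 1.34 to 11.2 FPKM. The part of these cells in the values of Cd247, Zap70, Lck, Lat and Lcp2 was not tested.

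After 1 dose no member was called. PD-1 Ab-treated tumors had 0 of 9 members called by limma, where 0% of the 14556 genes tested were called, and 7 of 9 members had an unadjusted p under 0.05, against 6.15% of all genes. All 9 differences were positive, with a median of 1.39 on the log2 scale against 0.26 for all genes, and scaling by the median of ratios moved that all-gene median to 0.01. The groups did not overlap in 1 of 9 members, Lat, against 3.59% of all genes. Lat stood at 2.04, 4.45, 2.47, 3.96 and 3.25 FPKM in treated tumors and at 0.108, 0.810, 1.97, 1.62 and 0.424 in isotype controls, with a log2 fold change of 1.98 ± 0.56 (adjusted p = 0.392). Cd3e stood at 1.87, 7.37, 4.46, 4.99 and 5.89 FPKM against 0.0455, 0.593, 2.51, 2.74 and 0.438, with 4 of 5 treated tumors above every control and a log2 fold change of 2.46 ± 0.73 (adjusted p = 0.431). The changes were 2.04 ± 0.79 for Cd3d (adjusted p = 0.691), 1.91 ± 0.51 for Cd3g (0.335), 1.24 ± 0.47 for Trac (0.671), 1.39 ± 0.52 for Zap70 (0.669), 1.34 ± 0.41 for Lck (0.464) and 0.64 ± 0.33 for Lcp2 (0.825). Without isotype control replicate 1, the library with the high mitochondrial share, the change of Cd3e was 1.83 (adjusted p = 0.130) and that of Cd3d 1.29 (0.241), the sign of Cd247 turned (-0.046), and 7 of all genes were called, none of them a member. Cd247 differed least, at 0.17 (95% confidence interval -0.47 to 0.82, adjusted p = 0.831), and its sign turned with the scaling (-0.073 with the median of ratios and -0.068 with the upper quartile).

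Sample identifiers split the isotype controls after 1 dose: replicates 1 to 3 were in a run of their own, and replicates 4 and 5 shared a run with all 5 treated tumors. Within the shared run the differences were 1.89 for Cd3e, 1.43 for Cd3d, 1.89 for Cd3g, -0.15 for Cd247, 1.36 for Trac, 1.30 for Zap70, 1.27 for Lck, 1.76 for Lat and 0.40 for Lcp2 on the log2 scale. They are given as values because 2 controls are too few for a test within the run.

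From 1 to 2 doses the members differed by 0.63 to 1.48 on the log2 scale among PD-1 Ab-treated tumors, but none was called. By limma, 0 of 9 were called, where 0.0598% of genes were called in either direction, and 9 of 9 had an unadjusted p under 0.05, against 35.7% of all genes. Cd3g had the largest difference, 1.48 ± 0.41 (adjusted p = 0.0360), and Lcp2 the smallest, 0.63 ± 0.22 (adjusted p = 0.0707). Cd247 was the member without overlap (1 of 9, against 5.39% of all genes), at 6.29 to 10.9 FPKM after 2 doses and 3.05 to 5.71 after 1 dose (log2 difference 0.80 ± 0.19, adjusted p = 0.0245). For Cd3e the difference was 1.40 ± 0.42 (adjusted p = 0.0451), for Cd3d 1.40 ± 0.45 (0.0543), for Trac 1.35 ± 0.41 (0.0465), for Zap70 1.18 ± 0.39 (0.0608), for Lck 1.08 ± 0.32 (0.0445) and for Lat 1.15 ± 0.33 (0.0385). Without replicate 5 of the 2-dose group, 7 of 9 members were called, all but Cd247 and Lcp2. In that fit 849 of 15166 genes were called in either direction. Dose number, day and run of sample identifiers cannot be told apart here.

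Isotype control tumors did not show a called difference between these times. By limma 0 of 9 members were called, as were 0% of 14445 genes, and 0 of 9 had an unadjusted p under 0.05, against 6.9% of all genes. The differences ran from -0.47 for Cd247 to 1.34 for Cd3e (adjusted p = 0.610 for both). Without isotype control replicate 1 after 1 dose, Cd3e differed by 0.71 and Cd3d by 0.21 in place of 0.97, and the signs of Trac (-0.049) and Lck (-0.088) turned. Against baseline tumors, isotype controls after 2 doses had 0 of 9 members called, where 0.595% of genes were called, and 1 member with an unadjusted p under 0.05, against 17.7% of all genes. That member was Cd247, which stood at 6.02, 6.16 and 3.83 FPKM in baseline tumors and 2.75, 3.48, 2.30, 4.21 and 2.66 in the controls (log2 difference -0.77 ± 0.24, adjusted p = 0.127). The other 8 members differed from baseline by -0.43 to 0.56, and 7 of these signs rest on 1 library: without baseline replicate 3, Cd3e went from 0.56 to -0.082, Cd3g from 0.24 to -0.59 and Trac from 0.46 to -0.46, and Cd3d, Zap70, Lck and Lcp2 turned as well. The comparisons with cultures, baseline, day 11 isotype controls and PD-1 Ab-treated tumors share the 5 isotype control tumors after 2 doses.

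The antibody effect after 2 doses was set against that after 1 dose in 1 fit over the 4 groups. By limma 0 of 9 members were called (0% of 15289 genes), and 1 had an unadjusted p under 0.05, against 7.73% of all genes. Cd247 had the largest difference of effects, 1.28 (95% confidence interval 0.52 to 2.03, p = 0.00201 before and 0.623 after adjustment in limma). For Cd3e the difference was 0.06, with an interval of -1.78 to 1.89 that leaves room for a difference of either sign. In this fit the median of all genes moved from -0.27 to -0.01 with median-of-ratios scaling.

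In PD-1cKO tumors most members were higher than in WT littermates. By limma 8 of 9 were called higher, where 4.2% of the 15075 genes tested were called higher, and the median log2 fold change was 1.74 against -0.20 for all genes (-0.04 with median-of-ratios scaling). The groups did not overlap for 2 of 9 members, Trac and Zap70, against 0.643% of all genes. With libraries scaled to equal totals outside short non-coding RNA, an unplanned alternative, 8 of 9 members were called. In that fit 1117 of 15095 genes were called in either direction.

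Zap70 ranged from 3.90 to 15.6 FPKM with a median of 6.77 in the 10 PD-1cKO tumors, and from 1.04 to 3.11 with a median of 1.67 in the 10 WT tumors. Every PD-1cKO tumor was above every WT tumor, and the log2 fold change was 1.90 ± 0.24 (SE; adjusted p = 0.000414). Trac ranged from 3.57 to 7.91 FPKM (median 4.49) against 0.647 to 3.49 (median 1.37), again without overlap, and rose by 1.74 ± 0.23 (adjusted p = 0.000414). Cd3e ranged from 2.36 to 16.0 FPKM (median 6.24) against 0.796 to 5.83 (median 1.32) and rose by 1.96 ± 0.33 (adjusted p = 0.000726). The overlap came from WT replicate 3, the highest WT tumor in 9 of 9 members: the other 9 WT tumors reached at most 2.03 FPKM, below all PD-1cKO tumors. Cd3d rose by 1.22 ± 0.18 (adjusted p = 0.000507) and Cd3g by 1.64 ± 0.29 (adjusted p = 0.000834), with medians of 3.40 against 1.49 FPKM and of 10.9 against 3.01.

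Cd247 ranged from 1.18 to 14.0 FPKM (median 3.67) in PD-1cKO and from 0.639 to 1.85 (median 1.16) in WT tumors. Of the 10 PD-1cKO tumors, 9 were above every WT tumor, and the log2 fold change was 1.79 ± 0.33 (adjusted p = 0.000991). Pou2f1 averaged 2.84 ± 1.11 FPKM in PD-1cKO and 3.56 ± 0.67 in WT tumors (SD, n = 10 each). Lck ranged from 6.02 to 37.8 FPKM (median 12.9) against 3.21 to 8.98 (median 3.65) and rose by 1.58 ± 0.28 (adjusted p = 0.000790). Lat ranged from 3.52 to 18.2 FPKM (median 6.01) against 0.851 to 4.88 (median 1.56) and rose by 1.94 ± 0.30 (adjusted p = 0.000610). Lcp2 differed by 0.72 ± 0.17 (adjusted p = 0.00388), short of 2-fold, at 6.53 to 21.3 FPKM (median 12.5) against 5.79 to 10.8 (median 6.85).

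The genetic groups were spread unevenly over runs of sample identifiers. One run held 7 PD-1cKO and 0 WT tumors, another 1 and 9, and the third 2 and 1. With the run as a term in the model, 0 of 9 members and 0 of 15075 genes were called by limma, while the members' log2 fold changes were 1.11 to 2.67, with adjusted p from 0.0254 to 0.0257 and unadjusted p under 0.05 for each. Within the run of 1 against 9 the differences were 1.54 to 3.60, and within the run of 2 against 1 they were 0.54 to 1.75, positive for 9 of 9 members in both. The only PD-1cKO tumor in the run of 1 against 9 was replicate 8, the highest of its group in 8 of 9 members. Its short non-coding RNA share was 66.51%. The estimates with the run as a term rest on these same runs, since the run of 7 PD-1cKO tumors held 0 WT tumors. Cell markers moved here too: 5 of 5 other T cell markers (sums 8.19 to 28.1 FPKM in WT and 19.1 to 164 in PD-1cKO), 2 of 4 macrophage markers (424 to 749 against 617 to 2003), 1 of 4 NK cell markers tested (2.04 to 10.0 against 4.25 to 36.4), 1 of 3 neutrophil markers (2.63 to 11.9 against 4.47 to 304) and 1 of 2 platelet markers (13.3 to 31.2 against 21.3 to 88.1) were called higher. The NK cell marker called was Klrd1 (log2 fold change 2.04). Klre1 (1.10), Eomes (0.41) and Klrb1c (-0.14) were not called. None was called of the 1 B cell marker tested (sums 0.841 to 1.91 against 0.809 to 4.65) or 3 mast cell markers (1.84 to 9.56 against 1.96 to 34.6). Nor was any of 3 epithelial markers called (0.599 to 4.24 against 0.458 to 35.6). Their part in the members' values was not tested.

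**Figure D3:**
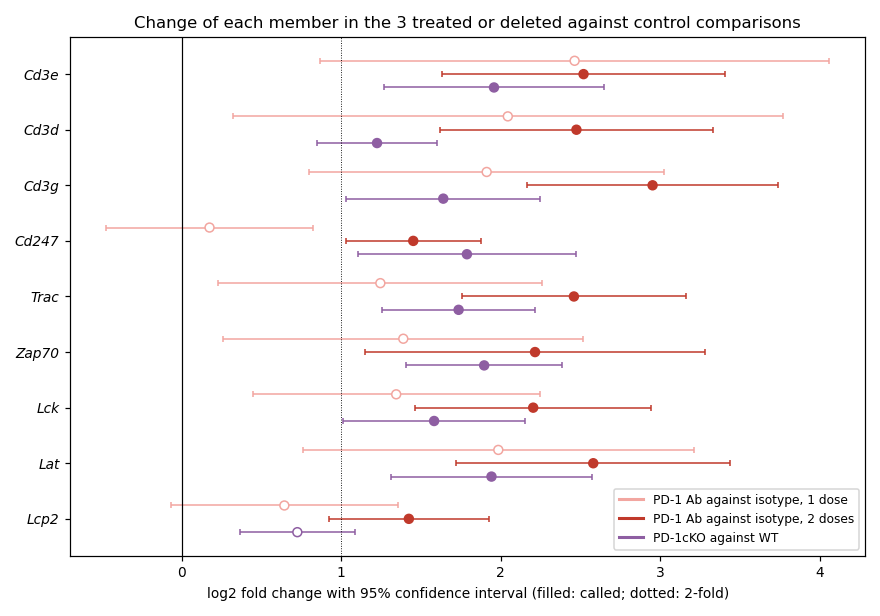
Log2 fold change with 95% confidence interval (horizontal axis) of the 9 members (rows) for PD-1 Ab against isotype control after 1 and after 2 doses and for PD-1cKO against WT; filled points were called and dotted lines mark 2-fold. After 2 doses 9 of 9 members were called, in PD-1cKO 8 of 9 and after 1 dose 0 of 9.

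The antibody effect after 2 doses and the PD-1cKO effect were compared in 1 fit over the 4 groups. By limma 0 of 9 members were called, where 0.0975% of 16404 genes were called, and 3 of 9 had an unadjusted p under 0.05, against 15.8% of all genes. Cd3g differed by 1.31 (95% confidence interval 0.27 to 2.36, adjusted p = 0.226) and Cd3d by 1.25 (0.45 to 2.05, adjusted p = 0.138), both larger with the antibody. Cd247 differed by -0.34 (-1.37 to 0.69, adjusted p = 0.7496). The all-gene median was 0.23 in this fit and 0.03 with median-of-ratios scaling. The models also differ in day, tamoxifen, run and short non-coding RNA share, which cannot be told apart from the way PD-1 was removed.

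To ask whether members changed by the same amount, each was expressed relative to Cd3e in the same tumor, as a log2 ratio, which gave 8 ratios in each of 2 comparisons. After 2 doses 0 of 8 members were called by limma, where 88.8% of all genes were called and 93.1% had p under 0.05 before adjustment (a background set by the rise of Cd3e itself). With that many genes called, the adjusted p of a ratio lies close to its unadjusted p and does not correct for the 8 ratios. Among members, 1 of 8 had a p under 0.05 before adjustment. That was Lcp2, whose ratio was 0.94 ± 0.39 in PD-1 Ab-treated and 2.03 ± 0.76 in isotype control tumors (SD, n = 5 each), a difference of -1.10 (95% confidence interval -2.16 to -0.03, adjusted p = 0.0469, exact two-sided permutation p = 0.0159). The ratio of Cd247 was -0.51 ± 0.56 against 0.56 ± 0.72, a difference of -1.07 (adjusted p = 0.0573, exact permutation p = 0.0317). The limits of Cd247, its level in cultured tumor cells and the overlap with Pou2f1, apply to its ratios as well. For Cd3g the ratio was 0.91 ± 0.09 against 0.48 ± 0.26, a difference of 0.43 (adjusted p = 0.436, exact permutation p = 0.0159). The other 5 ratios differed by -0.32 to 0.06, with exact permutation p from 0.175 to 0.913. The exact test over 252 splits cannot go below 0.00794. It was not planned, and its p are not adjusted for the 8 ratios. Without PD-1 Ab replicate 5, Cd247 (-1.32) and Lcp2 (-1.27) were called lower, in a fit where 13942 of 15156 genes were called.

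In PD-1cKO tumors, 1 of 8 members was called lower relative to Cd3e, against 92.1% of all genes. Here too the adjusted p lies close to the unadjusted p, and the permutation p is unadjusted, so neither corrects for the 8 ratios. Lcp2 had a log2 ratio of 0.97 ± 0.38 in PD-1cKO and 2.20 ± 0.61 in WT tumors (SD, n = 10 each), a difference of -1.23 ± 0.31 (limma adjusted p = 0.000469, permutation p = 0.000206). Cd3d differed by -0.73 (adjusted p = 0.0250, permutation p = 0.00882) and Cd247 by -0.17 (adjusted p = 0.633), whose sign turned when the mean of the 3 CD3 chains was the reference (0.18). The Lcp2 call was lost with 1 FPKM added, with the run as a term and with that mean as reference.

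**Figure D4:**
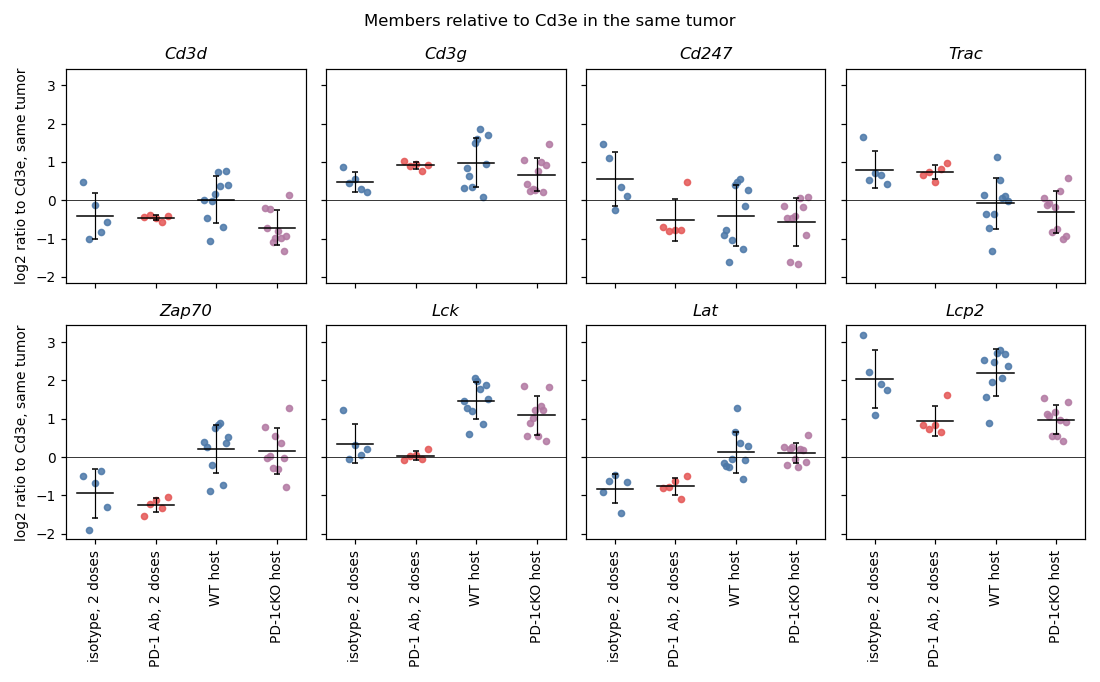
Log2 ratio of each of the other 8 members to Cd3e in the same tumor (vertical axes) for the 2-dose antibody groups and the genetic groups; points are tumors, and bars give group means with SD. Lcp2 lies lower relative to Cd3e in PD-1 Ab-treated than in isotype control tumors and in PD-1cKO than in WT tumors.

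Around the members, other genes of the pathway were counted in lists by role. Beside the counts of every list stand the shares of all genes called higher, 5.03% after 2 doses and 4.2% in PD-1cKO. Of the other receptor constant genes, 2 of 3 tested were called higher after 2 antibody doses and 3 of 3 in PD-1cKO. Trbc1 and Trbc2, the beta constant genes, are near-identical copies whose reads may be split between them. Trbc1 averaged 17.7 FPKM in PD-1 Ab-treated tumors after 2 doses (log2 fold change 2.93, adjusted p = 0.00129) and rose by 1.56 in PD-1cKO (adjusted p = 0.00761). Trbc2 rose by 2.57 (adjusted p = 0.00136) and by 1.92 (adjusted p = 0.000625). For Tcrg-C2, a gamma constant gene, the values were 2.23 (adjusted p = 0.0236, not called) and 1.39 (adjusted p = 0.00568).

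Coreceptors and T cell surface molecules were called higher in 7 of 8 after 2 doses and 7 of 8 in PD-1cKO, with median log2 fold changes of 2.43 and 1.68. Cd8b1 and Cd8a, the chains of the coreceptor of cytotoxic T cells, rose by 3.34 (adjusted p = 0.000885) and 3.06 (adjusted p = 0.000837) after 2 doses, and by 2.07 and 1.89 in PD-1cKO (adjusted p = 0.000606 and 0.000423). Cd8a averaged 27.9 FPKM in PD-1 Ab-treated and 3.09 in isotype control tumors. Cd4, the coreceptor of helper T cells, rose by 1.72 (adjusted p = 0.00310) and 1.08 (adjusted p = 0.00188). Ptprc, the phosphatase CD45 of all leukocytes, differed by 1.42 (adjusted p = 0.0133) and 0.43 (adjusted p = 0.132) and was not called.

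Other activating signaling genes were called higher in 10 of 17 tested after 2 doses and in 5 of 17 in PD-1cKO. Prkcq, a protein kinase C of T cells, rose by 2.43 (adjusted p = 0.00101) and 1.08 (adjusted p = 0.00832). At the other end, Plcg1, a phospholipase C that many cell types make, differed by -0.14 and -0.14 (adjusted p = 0.359 and 0.159), and Bcl10, part of a complex that leads to NF-kappaB, by -0.30 and -0.22 (adjusted p = 0.0477 and 0.199). Inhibitors of proximal signaling were called higher in 4 of 15 after 2 doses and 4 of 15 in PD-1cKO. The adaptor Lax1 rose by 2.13 (adjusted p = 0.00268) and 1.61 (adjusted p = 0.00108) and Ubash3a by 1.96 (adjusted p = 0.00300) and 1.62 (adjusted p = 0.00150). Dok1 differed by 0.10 and 0.19 (adjusted p = 0.508 and 0.232). Sla2 differed by -0.08 after 2 doses (adjusted p = 0.751), at means of 13.4 against 14.4 FPKM, and rose by 1.50 in PD-1cKO (adjusted p = 0.000840), at 2.03 against 0.618 FPKM. The median log2 fold changes were 2.57, 2.43, 1.44 and 0.69 for the receptor, coreceptor, activating and inhibitory lists after 2 doses and 1.56, 1.68, 0.71 and 0.50 in PD-1cKO, beside -0.04 and -0.20 for all genes tested.

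**Figure D5:**
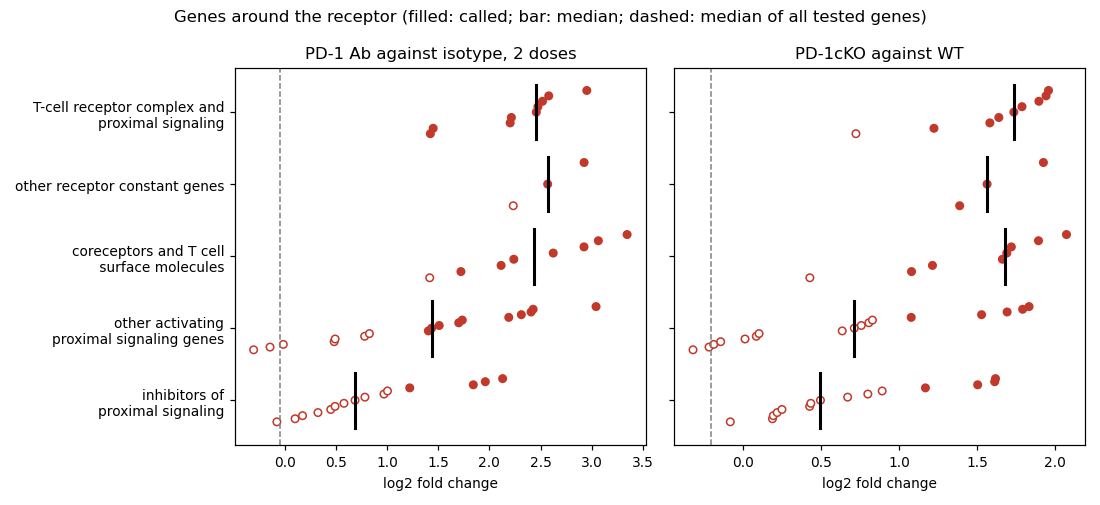
Log2 fold change of every tested gene (points) of the members and of 4 other pathway lists, for PD-1 Ab against isotype control after 2 doses and for PD-1cKO against WT; filled points were called, a bar marks each list's median and the dashed line the median of all genes tested. The members' points lie between 1.42 and 2.95 after 2 doses and between 0.72 and 1.96 in PD-1cKO.

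The members also varied together among tumors of the same group. Over 43 tumors, each taken as its deviation from the mean of its own group, Cd3e had a Pearson r of 0.914 with the mean of the other members, and Lat (0.913) and Lck (0.912) followed. Cd247 had the lowest r, 0.691, and Trac 0.821. Among 13219 genes that are no members, those most like the members' mean were Il2rb (r = 0.945), a chain of the interleukin-2 and interleukin-15 receptors, Gimap3 (0.924), a GTPase of lymphocytes, Pirb (0.917), an inhibitory receptor of myeloid and B cells, Nfatc2 (0.916), a transcription factor downstream of calcium, and Cd8a (0.910). The points share library scaling and tumor composition, so these values are given as a description. Baseline replicate 3 was the lowest of its group in 9 of 9 members, PD-1 Ab replicate 1 after 1 dose in 9 of 9 and isotype control replicate 1 after 1 dose, the library with the high mitochondrial share, in 7 of 9. PD-1cKO replicate 8 was the highest of its group in 8 of 9 members. With it and WT replicate 3 left out, an alternative chosen after seeing the data, the same count of 8 members was called. Over all genes, 749 of 14960 were then called in either direction.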

How the data were processed

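Total RNA of 43 tumors and 3 cultures was sequenced from ribosomal-depleted stranded libraries. The authors aligned reads to a GRCm38 genome with the OmicSoft aligner in Array Studio and deposited FPKM per Ensembl gene, 1 column per sample, which were used as given, with 0 unmapped columns. Gene symbols matched 48349 of 48795 identifiers. Values were tested as log2(FPKM + 0.1) with limma 3.58.1 in R 4.3.3 (lmFit and eBayes with a variance trend) on genes whose mean reached 0.5 FPKM in a compared group. Adjustment was by Benjamini-Hochberg over all genes tested, and a call needed an adjusted p under 0.01 and 2-fold (for differences of effects, the adjusted p alone). Samples were grouped by their replicate group label. The script was tested on simulated data. Same-numbered samples correlated at -0.21 to 0.16 in their deviations, so replicate numbers were not treated as pairs. The text names all 9 members and, of each other list, the 2 genes that rose most and the 2 at the low end after 2 doses, except 1 gene that is not reported here; members and lists were chosen with earlier results of these data known. Alternatives were other pseudocounts, filters, scalings, fits and left-out tumors. Python 3.11.15 with pandas 2.3.3, numpy 2.4.6 and matplotlib 3.10.9 was used for the rest.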

Additional observations from a re-analysis of the deposited data

Results flagged for a closer look

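There were 54 combinations of a member and a tumor group of 5 or 10 tumors. They are not independent, since members vary together among the tumors of a group. Of these, 8 held a tumor set apart from the rest of its group by Dixon's criterion, met by chance in about 1 of 20. WT replicate 3 was the highest WT tumor in 5 of these: Cd3e at 5.83 FPKM (the others 0.796 to 2.03), Cd3d at 2.75 (1.05 to 1.73), Cd3g at 9.16 (1.63 to 4.05), Lat at 4.88 (0.851 to 2.20) and Lcp2 at 10.8 (5.79 to 8.05). In the antibody arm, Cd3g was lowest in PD-1 Ab replicate 5 after 2 doses, at 8.65 FPKM (the others 24.6 to 35.3), and Cd247 in PD-1 Ab replicate 1 after 1 dose, at 3.05 (4.89 to 5.71). Lcp2 was lowest in isotype control replicate 1 after 1 dose, at 4.01 FPKM (9.93 to 13.1), the library with 54.63% mitochondrial FPKM. No difference of effects between times or models was called for a member by limma.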

How the results depend on the processing

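Depth is unknown from FPKM, and groups of 3 to 10 tumors limit what can be called. Where another setting ended a call or turned a sign, the cause was not tested. Cd247 after 1 dose turned from 0.17 to -0.073 with median-of-ratios and -0.068 with upper-quartile scaling, and ranged from -0.046 to 0.33 with 1 tumor left out. The difference of the antibody effects on Cd3e between 2 doses and 1 dose ranged from -0.39 to 0.69 with 1 tumor left out. Cd247 relative to Cd3e in PD-1cKO became 0.18 with the mean of Cd3d, Cd3e and Cd3g as reference. Members called in PD-1cKO went from 8 to 0 with the run of sample identifiers as a term, and those relative to Cd3e from 1 to 0 with that term, with 1 FPKM added and with the CD3 mean as reference. With 1 tumor left out, members called ranged from 0 to 7 between 2 doses and 1 dose of antibody and from 0 to 2 relative to Cd3e after 2 doses. With PD-1 Ab replicates 2 and 4 left out, 0 of 9 were called after 2 doses. Over all genes, 799 calls after 2 doses became 450 without a filter and 316 with a replicate block, and 1217 in PD-1cKO became 617 with 1 FPKM added and 0 with the run as a term. Against baseline, 89 calls became 135 with 1 FPKM added, 57 without a filter and 0 with the block. The 9 calls between 2 doses and 1 dose became 1 to 11 and the 16 for the difference between models 4 to 43 under the settings that kept all tumors. With 1 tumor left out, the 799 calls after 2 doses ranged from 375 (without PD-1 Ab replicate 3) to 1534 (without PD-1 Ab replicate 5) and were 422 to 494 without PD-1 Ab replicates 1 or 2 or isotype control replicates 1 or 5. The 1217 in PD-1cKO ranged from 743 to 1871 (without PD-1cKO replicates 4 and 9; 786 without 8). The 89 against baseline ranged from 13 (without baseline replicate 2) to 166 (without isotype control replicate 3), and only without isotype control replicate 4 were they within 1.5 times. The 9 between doses ranged from 1 to 849 (without replicate 5 of the 2-dose group; 44 without replicate 1 of the 1-dose group) and the 16 ranged from 2 to 61 (without 2-dose PD-1 Ab replicates 3 and 5). The replicate block left 7 of 9 members called after 2 doses (Zap70 at an adjusted p of 0.0173 and Lcp2 at 0.0109 were lost) and 8 in PD-1cKO, and against cultures it ended the call of Lat (0.0554) alone. Adding 1 FPKM ended the calls of Cd247, Zap70 and Lat against cultures and of Cd3d in PD-1cKO. After 2 doses 0 of 5 treated tumors correlated best with their own number.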
